A study of Mus musculus with 24 samples.

Results

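The 7 genes described here encode the core of the major histocompatibility complex (MHC) class II pathway: H2-Aa and H2-Ab1, H2-Eb1, H2-DMa and H2-DMb1, Cd74 and Ciita. They were chosen by symbol and are 7 of the 55487 genes in the deposited table. All 7 passed the filter on low counts. Whole-kidney RNA was sequenced from 24 male mice on the B6 background with X-linked Alport syndrome (XLAS), an inherited disease of the glomerular basement membrane caused by mutation of the collagen gene Col4a5. The mice were 15 weeks old and carried either 1 copy of Nbl1 (HET, heterozygous, 13 mice) or both copies (WT, wild type, 11 mice); Nbl1 encodes a secreted antagonist of bone morphogenetic proteins. All mice, the WT controls included, had the Alport syndrome, so a difference from healthy kidney cannot be read from these groups. Of the HET mice, 6 were in batch 1 and 7 in batch 2, and of the WT mice 6 and 5. The labels do not say what a batch shared, and they name neither the Col4a5 allele nor the Nbl1 allele.

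Class II molecules carry peptides from ingested and endosomal protein to the surface of antigen-presenting cells, where CD4+ T cells read them. H2-Aa and H2-Ab1 encode the alpha and beta chains of the mouse molecule I-A, and H2-Eb1 encodes the beta chain of I-E. Cd74 encodes the invariant chain, which fills the groove of new class II molecules and guides them to endosomes, and H2-DMa and H2-DMb1 encode the pair of chains that exchanges its remnant for antigenic peptide. Ciita encodes the coactivator that switches class II genes on; it does not bind DNA itself but docks on factors bound to the X and Y boxes of their promoters. In kidney these genes are known mainly from resident macrophages and dendritic cells, and they can be induced by interferon-gamma in epithelial and endothelial cells. In whole tissue, fewer cells of a type and less RNA per cell cannot be told apart.

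The promoter stretches that hold the X and Y boxes are shown because they are where CIITA is known to act. RefSeq promoters on GRCm38.p6 were at hand for H2-Aa, H2-Eb1, H2-DMa and H2-DMb1; those of the other members were not analysed here. Capitals mark the Y box core TGATTGG, the X box pattern GNAACNNNTGNTG and, in H2-Aa, the palindrome TGACGTCA of a cyclic AMP response element. H2-Eb2 and H2-Ob, other class II genes of the cluster, are shown for comparison.
H2-Aa: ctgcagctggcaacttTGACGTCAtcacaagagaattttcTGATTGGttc
H2-Eb1: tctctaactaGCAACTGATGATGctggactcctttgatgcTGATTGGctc
H2-Eb2: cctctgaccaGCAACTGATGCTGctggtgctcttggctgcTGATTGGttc
H2-Ob: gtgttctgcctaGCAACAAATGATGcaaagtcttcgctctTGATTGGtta
These stretches of 50 bases lie at chr17:34287864-34287913 on the minus strand, and at chr17:34305766-34305815, chr17:34325533-34325582 and chr17:34238806-34238855 on the plus strand. The Y core began 50 bases before the start of H2-Aa, 61 before that of H2-Eb1, 102 before that of H2-Eb2 and 59 before that of H2-Ob.

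Searched on both strands in the 250 bases before each start, the Y core was in 7.23% of 32851 promoters, the X pattern in 0.682% and the palindrome in 1.55%. The X pattern followed by the Y core with 10 to 30 bases between them was in 5 promoters, 0.0152% of all: H2-DMb1, H2-Eb1, H2-Eb2, H2-Ob and 1700048F04Rik. The letters of the X pattern and this spacing were chosen after class II promoters of the cluster had been looked at, so these genes are no independent hits. The H2-Aa promoter held the Y core without the X pattern as written, and neither of the 2 RefSeq promoters of H2-DMa held any of the 3 motifs. A match is a run of letters and not a measured site.

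The members lie on chromosomes 16, 17 and 18 of GRCm38. H2-Aa spans chr17:34282744-34287823 on the minus strand. H2-Ab1 (chr17:34257689-34269419), H2-Eb1 (chr17:34305867-34316674), H2-DMa (chr17:34119541-34139101) and H2-DMb1 (chr17:34153072-34160230) are on the plus strand of the same cluster. Cd74 (chr18:60803848-60812652) and Ciita (chr16:10480059-10528418) lie outside it. All 7 are annotated as protein coding in GENCODE M21.

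The libraries held 29551337 to 33019871 expected counts each in batch 1 and 36380374 to 50746652 in batch 2. Nbl1 checks the genotype labels. In batch 2 it was 4.22 to 7.82 CPM (counts scaled to library size) in HET and 6.999 to 15.2 CPM in WT mice. In batch 1, 3 libraries went against their labels: the library labelled HET 6 had the highest Nbl1 of that batch, at 9.24 CPM, and those labelled WT 1 and WT 2 had 5.41 and 3.62 CPM against 6.996 to 7.78 in the other WT. Htr6, the neighbouring gene, was at 0 counts in the library labelled HET 6 against at least 0.249 CPM in the other HET, and at 0.795 and 0.440 CPM in those labelled WT 1 and WT 2 against at most 0.0385 CPM in the other WT. The edgeR comparisons of genotype below were also computed without these 3 libraries.

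Cd74 and the 3 I-A and I-E chain genes were abundant in these kidneys, H2-DM was roughly an order of magnitude lower and Ciita was the lowest. Levels are given first as the deposited TPM, transcript levels scaled by gene length and library size so that genes can be compared. In batch 1 the mean level of Cd74 was 119.9 ± 20.4 TPM (SD, n = 12), that of H2-Aa 61.0 ± 10.6, that of H2-Eb1 55.4 ± 10.4 and that of H2-Ab1 51.4 ± 8.19. H2-DMb1 averaged 5.65 ± 0.816 TPM, H2-DMa 5.64 ± 1.30 and Ciita 1.94 ± 0.422. By mean TPM among 18339 tested genes, Cd74 ranked 473rd in batch 1, the 3 I-A and I-E chain genes 908th to 1050th, and Ciita 11472nd.

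The order in batch 2 was the same except that H2-Eb1 came above H2-Aa. Cd74 averaged 355.1 ± 94.4 TPM (SD, n = 12), H2-Eb1 187.3 ± 46.5, H2-Aa 173.0 ± 43.6 and H2-Ab1 137.3 ± 37.3. H2-DMb1 averaged 16.2 ± 3.61 TPM, H2-DMa 13.2 ± 3.75 and Ciita 3.59 ± 1.08. Between neighbours in the order, the ranges over mice were apart in both batches for H2-Ab1 and H2-DMb1 and for H2-DMa and Ciita, and in batch 1 for Cd74 and H2-Aa. The other neighbours overlapped, and H2-DMb1 and H2-DMa differed by less than their spread in batch 1. The gene lengths behind the deposited TPM were not the same in both batches: dividing the ratio of H2-Eb1 to H2-Ab1 in counts by that in TPM gives their length ratio, which was 0.855 to 0.969 in batch 1 and 0.787 to 0.826 in batch 2. The place of H2-Eb1 above H2-Aa in batch 2, and TPM levels set across batches, depend on these lengths. Cd74 exceeded each I-A and I-E chain gene in all 24 mice, and its TPM was 1.88 to 2.27 times that of H2-Aa.

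The other class II genes were at low levels, none above 5.20 CPM in any mouse. H2-Ea, the alpha chain of I-E, had 0 counts in 23 of 24 libraries and 2 counts in the remaining one; a count of 0 allows up to 0.059 to 0.102 CPM, depending on the library. GENCODE M21 lists it as a polymorphic pseudogene, and C57BL/6 mice are known to carry a non-functional copy, so that the I-E beta chain has no partner chain at the surface. H2-Eb2, a second I-E beta gene, was 0 to 0.605 CPM. H2-Oa and H2-Ob, whose products oppose H2-DM, were 0.189 to 1.21 CPM and 1.08 to 3.60 CPM, and H2-DMb2, the neighbouring copy of H2-DMb1, was 1.82 to 5.20 CPM.

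Some counts can hold reads of other genes. H2-DMa shares 3094 bases with Brd2 on the opposite strand, which averaged 4984 counts per library, and Ciita overlaps Dexi, also on the opposite strand, at 177.9 counts. Whether the counting used strand is not stated in the labels, so values of H2-DMa and Ciita may include reads of these partners. Expected counts were not whole in 22 of 24 libraries for H2-Aa, in 23 for H2-DMb1 and in 3 for Ciita. How such counts arose is not stated in the labels. H2-Ab1, H2-Eb1, Cd74 and H2-DMa had whole counts in all 24.

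**Figure D1:**
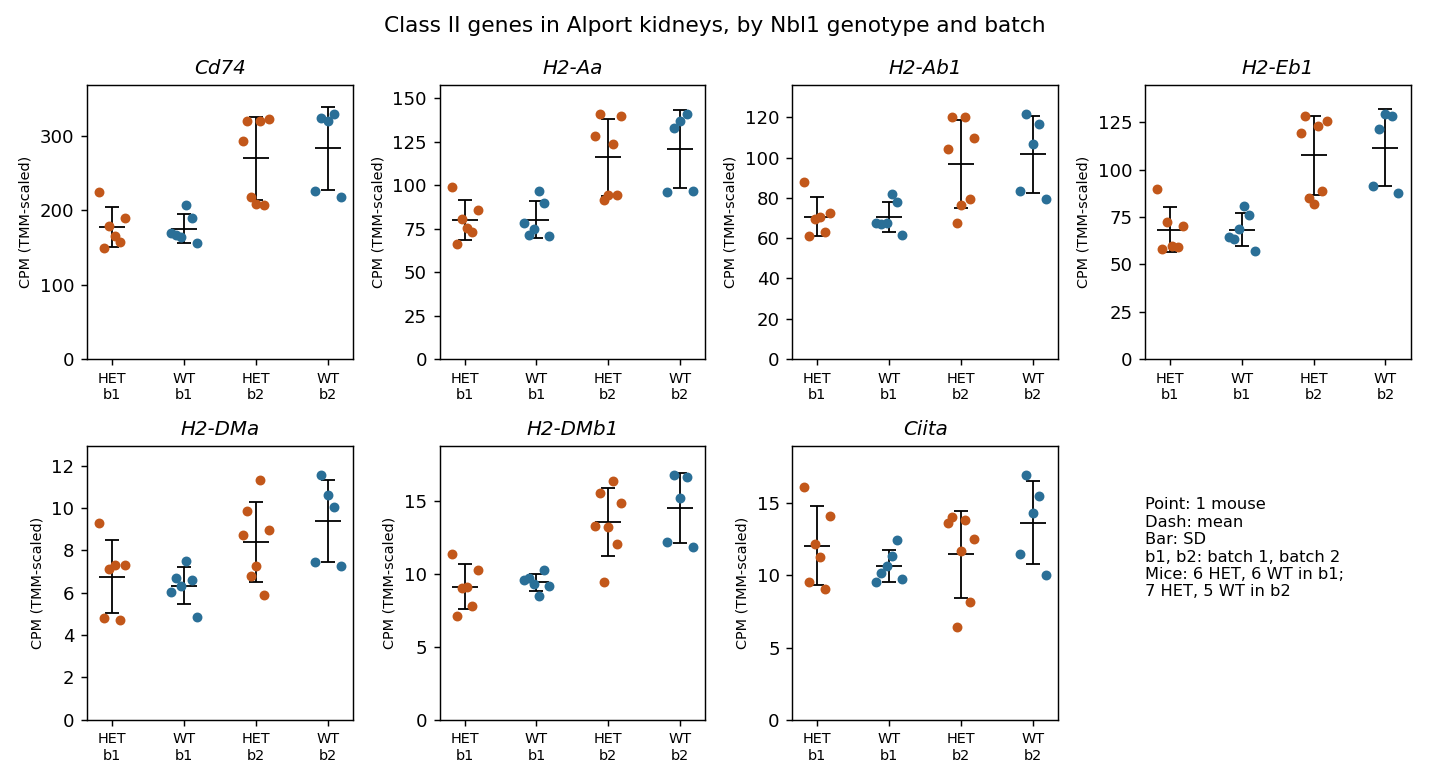
CPM of each class II gene in each mouse (vertical axes from 0, one panel per gene), by Nbl1 genotype (HET orange, WT blue) and batch; dashes are means and bars SD. HET and WT points overlap in every panel and both batches, and Cd74 in batch 2 lies either at 207.2 to 226.2 CPM or at 293.1 to 329.3 CPM.

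No class II gene passed the test between HET and WT mice, over all mice or within a batch. CPM scaled by TMM, which compare libraries for 1 gene, are given here. In batch 1 Cd74 was 149.5, 172.8 and 224.5 CPM (lowest, median and highest) in 6 HET mice and 156.2, 168.0 and 207.4 CPM in 6 WT mice. In batch 2 Cd74 was 207.2, 293.1 and 323.5 CPM in 7 HET mice, and the 5 WT mice had 226.2, 324.5, 319.7, 329.3 and 218.4 CPM. The HET and WT ranges overlapped in both batches, and low mice were present in both genotypes of batch 2.

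H2-Aa was 66.4, 78.2 and 99.1 CPM in HET and 70.8, 76.5 and 96.6 CPM in WT mice of batch 1. In batch 2 it was 91.3, 123.6 and 140.9 CPM in HET, and 96.1, 133.1, 137.1, 140.8 and 96.7 CPM in the 5 WT mice. For its partner H2-Ab1 the batch 1 values were 61.3, 69.8 and 88.0 CPM in HET and 61.6, 67.5 and 81.9 CPM in WT. HET 1 was the highest HET and WT 4 the highest WT of batch 1 for both I-A chains, and the groups overlapped throughout.

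H2-Ab1 in batch 2 was 67.5, 104.5 and 120.4 CPM in HET and 83.6, 121.5, 107.0, 116.8 and 79.2 CPM in the 5 WT mice. H2-Eb1 was 58.3, 65.1 and 89.6 CPM in HET and 56.9, 66.7 and 81.0 CPM in WT mice of batch 1. In batch 2 it was 82.1, 119.4 and 128.6 CPM in HET and 91.2, 121.7, 129.3, 128.6 and 88.0 CPM in the 5 WT mice. WT 7 and WT 11 were the 2 lowest of the 5 WT mice for all 3 I-A and I-E chain genes.

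The peptide exchange chains were lower. H2-DMa ranged over 4.70 to 9.28 CPM in HET and 4.87 to 7.48 CPM in WT mice of batch 1, and over 5.87 to 11.3 and 7.26 to 11.6 CPM in batch 2. H2-DMb1 ranged over 7.12 to 11.4 CPM in HET and 8.49 to 10.3 CPM in WT mice of batch 1, and over 9.48 to 16.4 and 11.8 to 16.8 CPM in batch 2. In each of the 4 pairs of ranges the groups overlapped.

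With all libraries kept, Ciita had the largest difference between genotypes within each batch, with opposite signs in the 2 batches. It was 9.06, 11.7 and 16.1 CPM in HET and 9.51, 10.4 and 12.4 CPM in WT mice of batch 1. In batch 2 it was 6.43, 12.5 and 14.1 CPM in HET, and 11.5, 16.9, 14.3, 15.5 and 9.998 CPM in the 5 WT mice. The lowest HET mice, HET 9 and HET 12, lay below all WT mice of batch 2, and the other 5 HET mice lay within the WT range.

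By edgeR's quasi-likelihood test over all mice, with batch as a covariate, 0 of the 7 members were called at a Benjamini-Hochberg adjusted p under 0.05, beside 0.0% of the 18339 genes tested. At an unadjusted p under 0.05 there were also 0 of 7 members, beside 4.12% of all genes. DESeq2 called 0 genes in the table too, with 811 at an unadjusted p under 0.05 against 755 by edgeR. The log2 fold changes of HET against WT ran from -0.07 ± 0.08 (SE) for H2-DMb1 to -0.02 ± 0.10 for Cd74, with an edgeR adjusted p of 0.997 for each. Their median was -0.03, beside 0.01 for all genes tested. The 95% intervals of the fold, on residual degrees of freedom, lay between 0.806 and 1.18 for the 7 genes. Nbl1 itself was not called either. Its fold was 0.630 over all mice (edgeR p = 0.000813, adjusted p = 0.997) and 0.508 in batch 2 (edgeR adjusted p = 0.477). The lack of a call therefore does not show that a gene is unchanged.

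Within batch 1 edgeR called 0 of 7 members, beside 0.0% of all genes, or 0 of 7 at an unadjusted p under 0.05, beside 2.78%. The log2 fold change was 0.18 ± 0.13 for Ciita, 0.10 ± 0.15 for H2-DMa and between -0.04 and 0.02 for the other 5. Without HET 1 that of Ciita was 0.08, smaller in size than the -0.12 of H2-DMb1 in the same fit, and without the 3 libraries that went against their labels it was also 0.08. Within batch 2 it called 0 of 7 members, beside 0.00545% of all genes, or 0 of 7 at an unadjusted p under 0.05, beside 8.34%. There all 7 fold changes were below 0, from -0.27 ± 0.21 for Ciita to -0.07 ± 0.16 for H2-Eb1, with edgeR adjusted p from 0.717 to 0.913. The 7 genes move together across mice, so their shared sign is not 7 separate observations.

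The difference between the batches in the genotype effect was tested directly. The interaction was -0.43 ± 0.25 on the log2 scale for Ciita (edgeR p = 0.101, adjusted p = 0.651) and nearer to 0 for the other 6. It called 0 of 7 members, beside 0.0% of all genes (8.2% at an unadjusted p under 0.05, and 0 of 7 members). Exact two-sided permutation tests of single members on log2 CPM gave unadjusted p of at least 0.260 within a batch and at least 0.368 over all mice. Ranges of HET and WT overlapped for all 7 members in both batches; the share of all genes with ranges apart was 0.0872% in batch 1 and 0.551% in batch 2. Without the 3 libraries that went against their labels, 0 of 7 members were called in any of these comparisons, and the log2 fold changes over all mice ran from -0.13 for Ciita to -0.07 for Cd74.

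**Figure D2:**
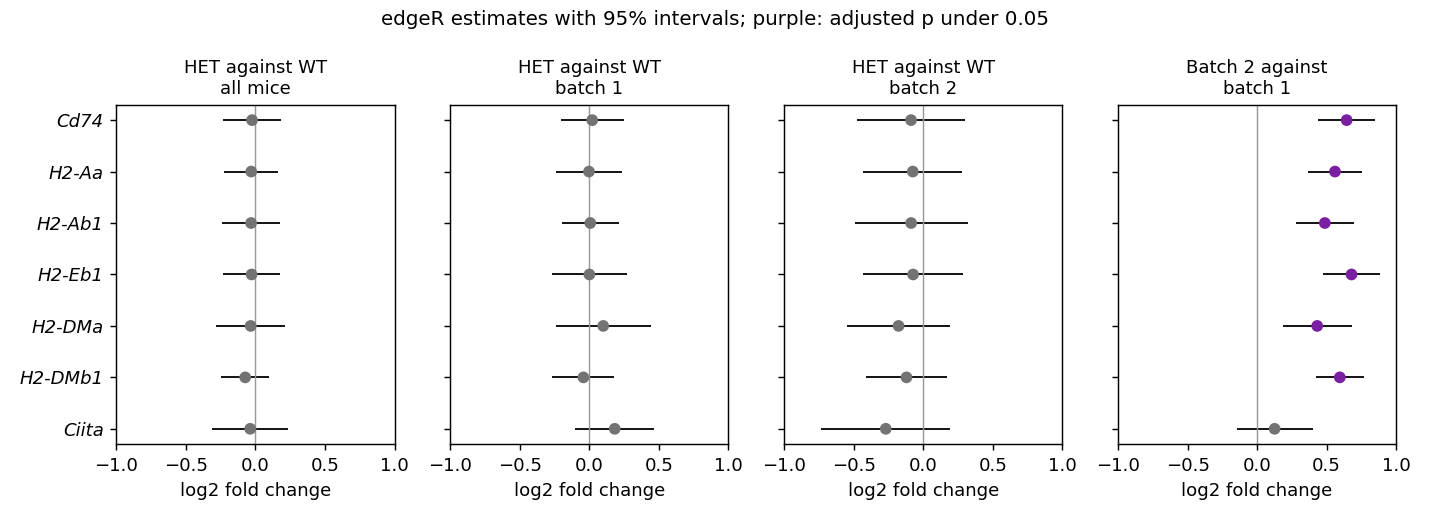
Log2 fold changes (horizontal axes) of the 7 class II genes for HET against WT over all mice and within each batch, and for batch 2 against batch 1; points are edgeR estimates, lines 95% intervals and purple points an adjusted p under 0.05. Each HET against WT interval includes 0. In batch 2 against batch 1, 6 of 7 genes are called higher, and Ciita, at 0.13, is not called.

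Mice that were high for one class II gene tended to be high for the others, though 7 of 12 mice in batch 1 were above the batch median for only some members. In batch 1, HET 1 was the highest of 12 mice for all 7 genes, on average 0.39 above the batch mean on the log2 scale, while HET 2, HET 5 and WT 6 were below the batch median for all 7. In batch 2, WT 8, WT 9, WT 10 and HET 8 were above the batch median for all 7 genes, and HET 9, HET 10, HET 12, WT 7 and WT 11 were below it for all 7. Of the 24 mice, 6 lay above and 8 below their batch median for every member, and both genotypes were on each side. The members varied more than most genes: their SD on the log2 scale, after the mean of each genotype in each batch was removed, was 0.224 for H2-DMb1 to 0.328 for Ciita, against a median of 0.135 for all genes with at least 1 CPM.

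**Figure D3:**
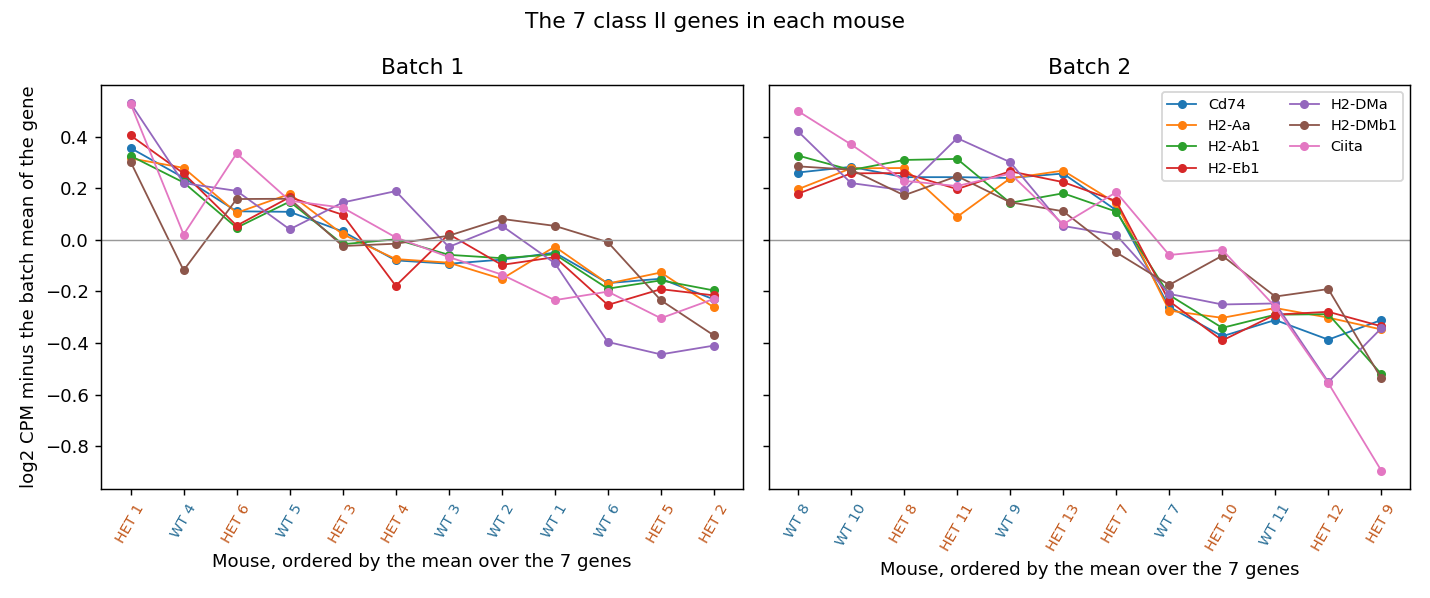
Log2 CPM of the 7 class II genes in each mouse, minus the mean of that gene in the batch (vertical axis), with mice ordered from left to right by their mean over the 7 genes; HET labels are orange and WT labels blue. The lines of the 7 genes mostly run together, and batch 2 has a step of 0.30 between HET 7 and WT 7.

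In batch 1 the 3 I-A and I-E chain genes and Cd74 were each other's nearest genes. For each of these 4, the other 3 took the first 3 places among 15359 genes ranked by Pearson r over the 12 mice. Cd74 and H2-Aa had r = 0.981 (Spearman's rho = 0.958), Cd74 and H2-Ab1 r = 0.973, and Cd74 and H2-Eb1 r = 0.957. Without the 2 mice farthest from the median of H2-Aa, H2-Ab1 and H2-Eb1 respectively, these values were 0.964, 0.925 and 0.892. H2-DMb1 had r of 0.602 to 0.668 to these 4 genes and 0.845 to Ciita. Without the 2 mice farthest from the median of H2-DMb1 its r with Cd74 was 0.229. Without the 2 mice farthest from the median of the partner instead, r was 0.787 with H2-Aa, 0.807 with H2-Ab1 and 0.657 with H2-Eb1, so these values rest on which mice are kept. By permutation within genotype and adjusted over 21 pairs, 20 pairs passed 0.05 by Pearson's r and 17 by Spearman's rho.

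Batch 2 gave r of 0.804 to 0.988 for the 21 pairs, all past the same permutation test. Many other genes had r as high there. H2-Eb1 was 1st for H2-Aa and Cd74 1st for H2-Eb1 among 15359 genes. H2-Ab1, however, ranked 31st for H2-Aa, 12th for H2-Eb1 and 9th for Cd74. Ciita ranked 317th, 418th and 297th for H2-Aa, H2-Eb1 and Cd74. The mice of batch 2 also fell into 2 runs. For the mean over the 7 genes the 7 upper and 5 lower mice were separated by 0.30 on the log2 scale, wider than any other step in that batch. Among the 7 upper mice alone r was above 0 in 14 of 21 pairs, with a median of 0.414. The run was set by the mean of the same 7 genes, which narrows their range and lowers r by construction. The lowest value among the 7 mice was -0.544 for H2-Aa and H2-DMa, against 0.866 over 12 mice, and the highest was 0.932 for H2-Ab1 and H2-DMb1, against 0.934. The 5 lower mice are too few for a correlation. The upper run held 4 HET and 3 WT mice and the lower run 3 HET and 2 WT mice.

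Over all 24 mice, with the mean of each genotype in each batch removed, r was 0.754 to 0.976 for the 21 pairs (median 0.855) and rho 0.737 to 0.975; these values carry the step in batch 2. All 21 pairs passed at an adjusted p of at most 0.00029 for r and 0.00053 for rho (100000 permutations within genotype and batch). The closest pair was H2-Aa and Cd74, and the difference between these 2 genes had an SD of 0.055 on the log2 scale against 0.240 and 0.252 for each alone. Ciita and H2-DMb1 were each other's nearest gene over the 24 mice, at r = 0.904, but in neither batch alone. In batch 1 Ciita ranked 8th for H2-DMb1 and H2-DMb1 ranked 15th for Ciita. In batch 2 these ranks were 5th and 12th. All 21 pairs also passed without the 3 libraries that went against their labels.

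**Figure D4:**
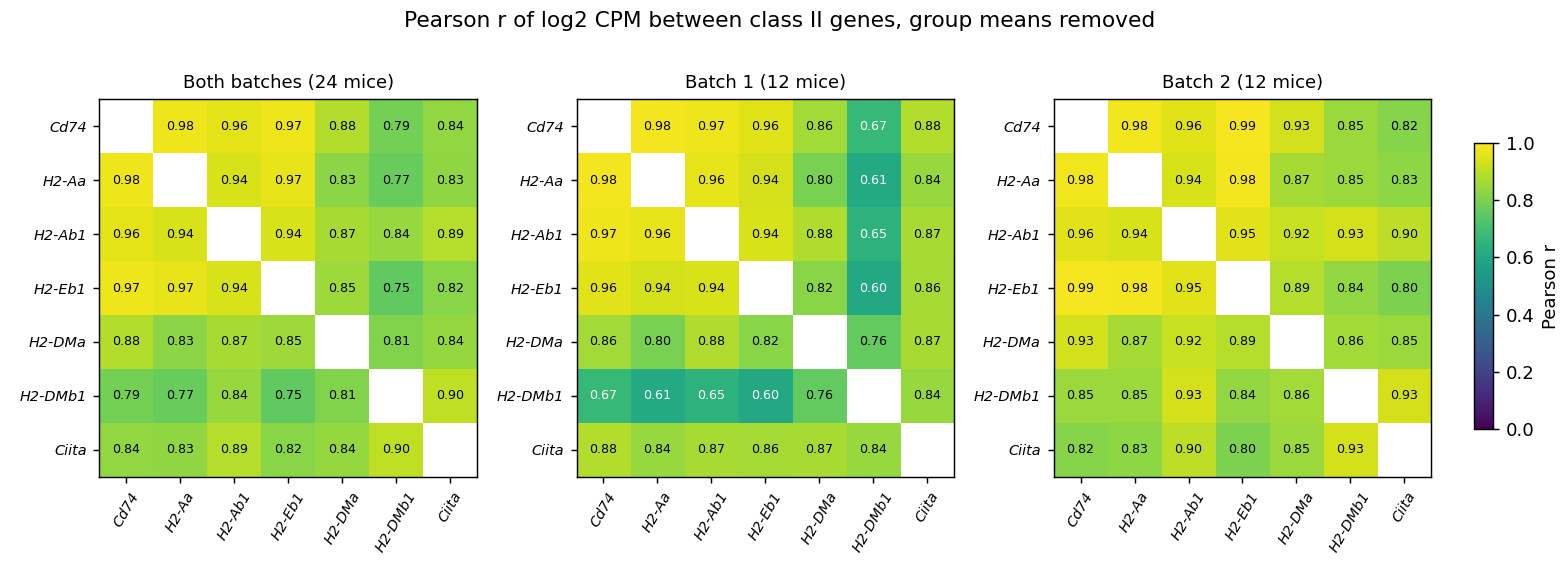
Pearson r of log2 CPM for each pair of class II genes (colour from 0 to 1, value printed), after removal of the group means, over 24 mice and within each batch of 12. Cd74, H2-Aa, H2-Ab1 and H2-Eb1 form the brightest block in each panel, and H2-DMb1 has the lowest values in batch 1.

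The nearest other genes included several known from macrophages or from the MHC class I pathway. The gene most often among the 5 nearest other genes was Lcp1, which encodes the actin-bundling protein L-plastin of white blood cells, with r of 0.870 to 0.941 to 4 members over 24 mice. Efhd2 was among the nearest of 3 members. Lyz2, the lysozyme of macrophages, had r = 0.946 to H2-Eb1; C1qb, a complement chain made by macrophages, had 0.925 to H2-Eb1; and Mpeg1, which encodes the pore protein perforin-2 of macrophages, had 0.928 to H2-Aa. Tapbp, the class I peptide loading factor tapasin, had 0.889 to H2-Ab1, and H2-D1, a classical class I heavy chain, 0.871. For H2-DMb1 and Ciita the nearest gene outside the members was Prex1, at 0.882 and 0.878. These values are descriptions over mice that share the step in batch 2.

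By list, the median r to the 7 members over 24 mice lay between 0.638 and 0.867 for 11 macrophage markers and between 0.622 and 0.771 for 12 class I genes. For all genes the median lay between -0.097 and -0.068. In batch 1 alone the medians were 0.429 to 0.778 for macrophage markers, 0.427 to 0.600 for class I genes and -0.049 to -0.024 for all genes. Among the macrophage markers Cd68 had r = 0.890 to Cd74 over 24 mice, while Mertk had -0.499, so the list did not move as a block. The 7 of 9 markers of conventional dendritic cells with at least 1 CPM had medians of 0.502 to 0.607, Itgax being the nearest to Cd74 at 0.781. Of 11 T cell markers, 3 had at least 1 CPM, and their medians were 0.614 to 0.731 over 24 mice, 0.377 to 0.636 in batch 1 and 0.730 to 0.869 in batch 2. Cd4, which encodes the T cell coreceptor that binds class II, had r = 0.845 to Cd74. The T cell list summed to 4.66 to 12.9 CPM per mouse.

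The summed level of the macrophage list was 184.8 to 230.1 CPM in HET and 187.5 to 227.0 CPM in WT mice of batch 1, and 221.4 to 280.1 and 224.1 to 292.5 CPM in batch 2. That of the dendritic cell list was 31.5 to 39.7 CPM in batch 1 and 30.8 to 46.7 CPM in batch 2. No gene of either list was at 0 counts in all libraries of a group. B cells also carry class II, and their 8 markers summed to 3.99 to 12.4 CPM per mouse, only Cr2 averaging above 1 CPM. The part of these cells in the class II values was not tested.

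Kidney marker genes did not share one direction. The median r to Cd74 was -0.312 for 5 proximal tubule genes such as Lrp2, -0.352 for 4 podocyte genes and -0.042 for 5 endothelial genes over 24 mice, beside -0.097 for all genes. In batch 1 the medians over the 7 members were -0.471 to 0.151 for proximal tubule, 0.015 to 0.390 for podocyte, 0.080 to 0.328 for endothelial and 0.079 to 0.459 for 3 loop of Henle and distal tubule genes. In batch 2 all 4 lists had medians below 0, from -0.584 to -0.094, beside -0.128 to -0.094 for all genes. For 3 adipose markers the medians were -0.620 to -0.289 in batch 1 and 0.230 to 0.523 in batch 2. For 2 lymph node stroma markers they were 0.148 to 0.327 and 0.512 to 0.705. The part of these tissues in the class II values was not tested.

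The factors that bind class II promoters had low r to the members. Rfx5, Rfxank and Rfxap encode the RFX complex of the X box, Nfya, Nfyb and Nfyc the NF-Y complex of the Y box, and Creb1 a factor of the cyclic AMP response element. Rfx5 had the highest r of the 7 to Cd74, at 0.402, and Creb1 the lowest, at -0.329; their medians over the 7 members lay between -0.099 and -0.027. By edgeR 0 of the 7 factors, 0 of 3 tested other class II genes, 0 of 12 class I genes and 0 of 11 macrophage markers were called between HET and WT over all mice, where 0.0% of all genes were called. Of the 11 genes for processing and turnover, Ctss, the cathepsin that trims the invariant chain, had r = 0.878 to Cd74, against 0.421 for Ctsb and 0.026 for Lgmn, other endosomal proteases. Over the 11 genes, r to Cd74 ran from -0.421 to 0.878, with a median of 0.211. For 13 interferon-gamma response genes with at least 1 CPM, r to Cd74 ran from -0.176 to 0.704, with a median of 0.528. Irf8 had the highest value, and Irf1 had 0.698. Ifng itself was 0 to 0.119 CPM.

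**Figure D5:**
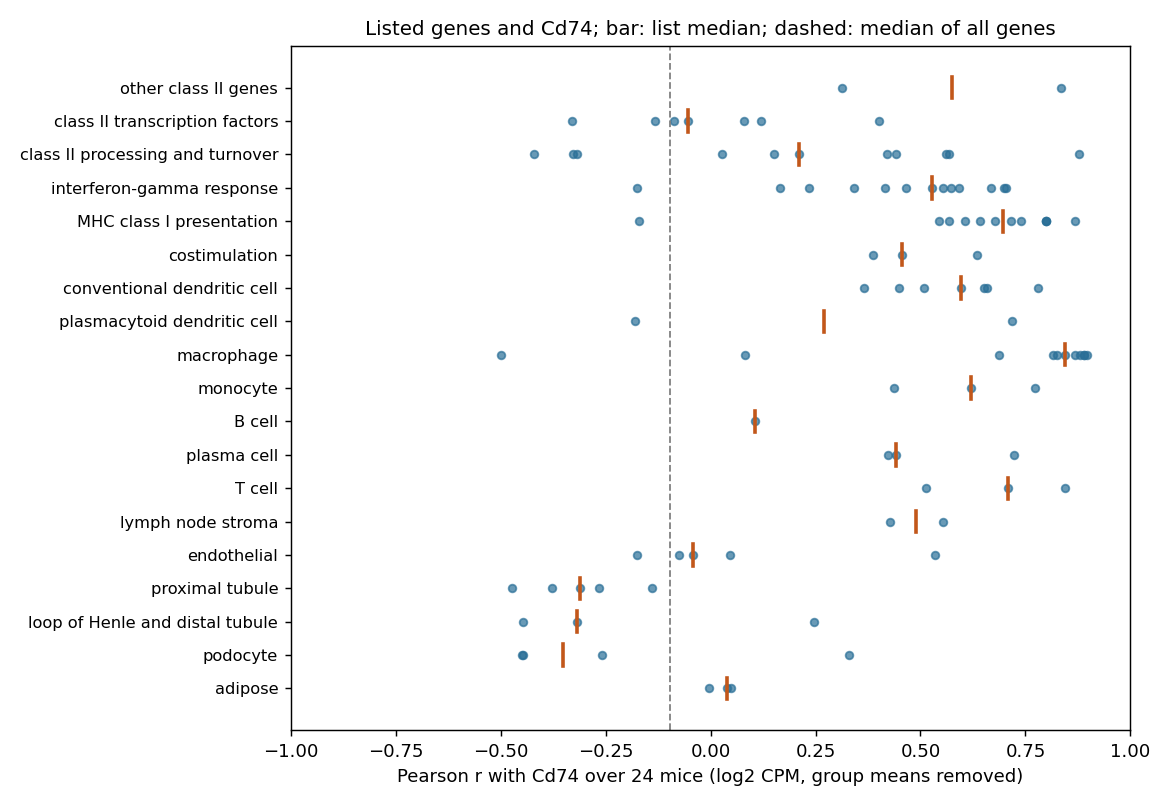
Pearson r with Cd74 over 24 mice (horizontal axis) for each listed gene with a mean of at least 1 CPM (points), by list (vertical axis); orange bars are list medians and the dashed line is the median of all genes, -0.097. Most macrophage and class I genes lie to the right and most proximal tubule and podocyte genes to the left.

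The 6 effector genes were higher in batch 2 than in batch 1, and Ciita was not called. The log2 difference was 0.68 ± 0.10 (SE) for H2-Eb1, 0.64 ± 0.10 for Cd74, 0.60 ± 0.08 for H2-DMb1, 0.56 ± 0.09 for H2-Aa, 0.49 ± 0.10 for H2-Ab1 and 0.43 ± 0.12 for H2-DMa. The edgeR adjusted p was at most 0.00258 for these 6, and Ciita had 0.13 ± 0.13 with an adjusted p of 0.415. A called rise in 6 of 7 members stands beside 32.6% of all genes called higher, 30.9% called lower and 63.5% called in either direction (66.3% at an unadjusted p under 0.05, with the same count of 6 members), so most genes differ between the batches. The ranges of the batches overlapped for all 7 members, beside 20.4% of all genes with ranges apart.

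Genes of several other lists, but not of all, were higher in batch 2 as well. By edgeR 9 of 11 macrophage markers were higher in batch 2 and 1 was lower, with a median of 0.51 on the log2 scale against 0.03 for all genes tested and 0.56 for the members. The 5 endothelial and 4 podocyte markers were all higher, with medians of 0.47 and 0.28, and so were 10 of 12 class I genes, with a median of 0.32. Among processing genes 9 of 11 were higher, including Ctss at 0.69 ± 0.13 and Ctsd at 0.28 ± 0.03. Of 5 proximal tubule markers, 0 were higher and 2 were lower, and their summed level had a median of 11390 CPM in batch 1 and 9644 CPM in batch 2. Of 3 plasmacytoid dendritic cell markers tested, 1 was higher and 1 lower, and the list of 4 summed to medians of 80.3 and 66.0 CPM. What the batches differ in cannot be told apart from their cell content here. On log2(TPM + 1) the median of all genes was 0.69 higher in batch 2, and Ciita was called with limma at 0.62, below that median.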

How the data were processed

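Kidney RNA of 24 mice was sequenced, 1 library each. The authors deposited 1 table with expected counts, TPM and FPKM per library; FPKM were not used here. The submitters' processing notes list fastp, STAR, featureCounts and the build GRCm38 (mm10). Versions, strand setting and annotation: not given in the sources used here. RNA and mRNA library kits were the same for all libraries, per the labels' protocols. The deposited expected counts were rounded to whole numbers. TPM were used as the authors deposited them. The labels identify separate libraries with no replicate number; the title of HET replicate 8 has another animal number than its library name, by which its column was found.

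Genes were kept by filterByExpr of edgeR 4.0.16 (R 4.3.3) with genotype as the group and a minimum count of 10, leaving 18339 genes in every fit. Libraries were scaled by TMM and tested with edgeR's robust quasi-likelihood test. The p-values were adjusted over all genes tested by the Benjamini-Hochberg method at 0.05. Standard errors come from the F statistic, and 95% intervals use the residual degrees of freedom alone. The fits were tested on simulated counts. Correlations used log2 CPM with a prior count of 2. Alternatives were RLE scaling, DESeq2 1.42.0, other filters, limma 3.58.1 on log2(TPM + 1) and log2(TPM + 0.1), no batch covariate and leaving out libraries. Depth limits precision for low genes such as H2-Eb2.

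Named genes are the members, the gene checks, the 5 nearest genes of each member (a selection is printed) and members of 19 lists; within lists, Cd68, Mertk, Itgax, Ctss, Ctsb, Lgmn, Irf1, Cr2 and Ifng were singled out after their values were seen. The members and lists were chosen with earlier results of these data known.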

Additional observations from a re-analysis of the deposited data

How the results depend on the processing

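No alternative called any member between HET and WT. In batch 2 most members were further below 0 on log2(TPM + 1) than on log2 CPM. The difference of means was -0.25 against -0.07 for Cd74 and -0.23 against -0.06 for H2-Aa. For Ciita it was -0.28 on both scales. The median of all genes by limma on log2(TPM + 1) was also below 0 there, at -0.11. The number of genes called in the whole table moved: over all mice it was 2 without the 3 libraries that went against their labels (an alternative chosen after seeing the data), against 0. In batch 1 it was 1 with DESeq2, 1 without the low-count filter and 2 without the 3 libraries. In batch 2 it was 26 with DESeq2, 3 without the filter, 0 with a minimum count of 50 and 0 with limma on log2(TPM + 1), against 1. Leaving out 1 library gave 1 to 3 in batch 2 and 0 to 1 for the interaction. The 1 gene called in batch 2 with all libraries kept was Htr6 (edgeR adjusted p = 9.22e-05). The 3 libraries were picked by their Nbl1 and Htr6 levels, so a call of either gene without them would be no independent result.

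Member fold changes near 0 turned sign. Without the batch covariate they were 0.019 for Cd74, 0.011 for H2-Aa, 0.021 for H2-Eb1 and 0.002 for H2-Ab1. In batch 1 without the 3 libraries they were -0.033 for Cd74, -0.058 for H2-Eb1 and -0.038 for H2-Ab1. In batch 1 limma on log2(TPM + 1) and log2(TPM + 0.1) gave 0.052 and 0.053 for H2-Aa, -0.027 and -0.038 for H2-DMa, and 0.010 and 0.008 for H2-DMb1, and RLE scaling and DESeq2 each gave -0.001 for H2-Eb1. Leaving out 1 library over all mice gave -0.108 to 0.020 for Ciita, -0.076 to 0.003 for Cd74, -0.105 to 0.006 for H2-DMa and -0.080 to 0.004 for H2-Ab1. In batch 1 it gave -0.059 to 0.075 for Cd74, -0.075 to 0.058 for H2-Aa, -0.014 to 0.186 for H2-DMa, -0.094 to 0.056 for H2-Eb1, -0.067 to 0.056 for H2-Ab1 and -0.117 to 0.017 for H2-DMb1, the lowest each time without HET 1. For the interaction it gave -0.129 to 0.020 for H2-Eb1 and -0.123 to 0.014 for H2-DMb1. The cause was not tested. Ciita was called higher in batch 2 with limma on log2(TPM + 0.1), at 0.825, below the median of 0.894 for all genes in that fit. All 21 correlations over 24 mice passed in each alternative. No paired analysis was possible because the labels carry no replicate numbers; those used were given in the order of deposition.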

Other observations

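The deposited TPM and the counts did not give the same ratios between members. Of 6 ratios between members computed in each mouse, 2 had ranges apart between the batches in TPM, and 0 had in CPM. H2-Eb1 to H2-Ab1 was 0.944 to 1.22 in batch 1 and 1.24 to 1.58 in batch 2 in TPM, but 0.852 to 1.04 and 1.00 to 1.26 in CPM. H2-Aa to Ciita was 27.1 to 35.8 and 38.8 to 67.2 in TPM, but 6.06 to 8.51 and 7.85 to 14.2 in CPM. Both ratios were higher in batch 2 on CPM as well. Their medians went from 0.964 to 1.11 for H2-Eb1 to H2-Ab1 and from 7.02 to 9.49 for H2-Aa to Ciita. Ratios within a mouse are free of the scaling between libraries. The length ratio that the counts and TPM imply had ranges apart between the batches for H2-Eb1 to H2-Ab1 and overlapping ranges for the other 5 ratios; for H2-Aa to Ciita it was 0.200 to 0.246 in batch 1 and 0.185 to 0.211 in batch 2. The place of H2-Eb1 above H2-Aa in batch 2 rests on the TPM scale.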
